A study of Mus musculus with 6 samples.

Results

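Amino acid breakdown and the urea cycle are tasks of the hepatocyte. Amino groups are moved to glutamate and aspartate and leave as urea, carbon skeletons are oxidised, and methionine is turned into the methyl donor S-adenosylmethionine. Several of the first enzymes of these routes are made almost only in liver, while those that degrade the branched-chain amino acids work in most tissues with mitochondria. The 52 genes described here encode such enzymes in 13 short pathways. They are a fixed list of named genes out of 23394 genes in the deposited tables, and for each the transcript with the highest mean over all libraries was used. Urah, an enzyme of urate rather than amino acid breakdown, belongs to the list and is given on its own. The members were chosen by their normalised counts in these same libraries, where KO was known to be higher, so their counts and differences are descriptions and give no independent evidence.

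The cells came from livers of male C57BL/6 mice aged 3 months on normal chow, digested and selected with magnetic beads for F4/80, a surface protein of mouse macrophages. There were 3 knockout (KO) and 3 wild-type (WT) libraries, and mice of both genotypes had received carbon tetrachloride (CCl4) by intraperitoneal injection. No group without CCl4 was analysed here, and the labels name neither the targeted gene nor a promoter or Cre line. Whether a library stands for 1 animal or a pool is not stated either, so the spread behind the p-values may be partly technical.

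With 1 transcript per gene the libraries held 10790842 to 22157238 reads. Mitochondrial transcripts took 16.4%, 16.2% and 20.0% of these reads in KO replicates 1, 2 and 3. In WT replicates 1, 2 and 3 they took 16.6%, 27.5% and 6.19%, and their part in the results was not tested. The labelled cell type was macrophage, and all 12 macrophage markers listed were read in every library, Adgre1 (F4/80 itself) at 4441, 4648 and 6673 normalised counts in KO replicates 1, 2 and 3 and 6516, 7644 and 4463 in WT replicates 1, 2 and 3. All 18 hepatocyte markers, none of them an enzyme of the list, were also read in every library. KO replicate 1 stood apart in red cell genes, with a sum of 232441 normalised counts over 6 erythroid markers, against 89625 and 26732 in the other KO libraries and 1922 to 28783 in WT libraries. Below, values are normalised counts in the order of replicates 1, 2 and 3, that is, reads after division by a library factor in the deposited tables. Log2 changes are KO minus WT on the scale of log2(value + 1), which understates changes of low genes, with the standard error (SE) and the p of limma adjusted over all 15619 genes tested. In such bulk samples more cells of a type and more RNA per cell cannot be told apart.

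The start regions of the enzyme genes are shown first because their CpG content differs between the tissue classes used below. Each gene was put into 1 of 3 classes by general knowledge of where it is made, with earlier results of these data known: 22 liver-restricted, 17 intermediate and 13 widely expressed. RefSeq start regions (GRCm38.p6, 250 bases before to 50 after the RefSeq start) were matched for 44 of the 52 genes. A match needed a RefSeq start within 500 bases of the start of the transcript used. The 250 bases before the RefSeq start are printed for 5 of the matched genes, 5′ to 3′ on the strand of the gene, with every CpG in capitals. For Hibadh and Pccb some of these bases lie inside the transcript used. Urah is the liver-restricted member of smallest p, Uroc1 the liver-restricted member with the fewest CpG for its base composition, Mccc1 the widely expressed member of largest p, and Pccb and Hibadh the widely expressed members with the most CpG for their base composition. They lie at chr7:140835029-140835278 on the plus strand, chr6:90333039-90333288 on the plus strand, chr3:36000679-36000928 on the minus strand, chr9:101034885-101035134 on the minus strand and chr6:52640301-52640550 on the minus strand.
Urah: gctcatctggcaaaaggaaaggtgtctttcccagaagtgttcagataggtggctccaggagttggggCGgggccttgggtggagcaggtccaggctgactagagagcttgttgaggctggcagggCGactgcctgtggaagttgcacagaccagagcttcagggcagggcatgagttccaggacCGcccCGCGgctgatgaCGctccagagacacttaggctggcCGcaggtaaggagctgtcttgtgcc
Uroc1: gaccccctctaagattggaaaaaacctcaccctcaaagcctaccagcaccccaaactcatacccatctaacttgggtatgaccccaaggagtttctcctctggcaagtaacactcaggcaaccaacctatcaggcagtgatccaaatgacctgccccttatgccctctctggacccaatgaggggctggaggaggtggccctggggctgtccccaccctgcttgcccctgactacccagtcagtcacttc
Mccc1: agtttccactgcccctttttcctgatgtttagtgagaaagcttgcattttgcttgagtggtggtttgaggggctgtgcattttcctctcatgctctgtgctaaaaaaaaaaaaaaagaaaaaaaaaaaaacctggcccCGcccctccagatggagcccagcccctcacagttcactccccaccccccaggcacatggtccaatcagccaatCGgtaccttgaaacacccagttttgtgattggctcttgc
Pccb: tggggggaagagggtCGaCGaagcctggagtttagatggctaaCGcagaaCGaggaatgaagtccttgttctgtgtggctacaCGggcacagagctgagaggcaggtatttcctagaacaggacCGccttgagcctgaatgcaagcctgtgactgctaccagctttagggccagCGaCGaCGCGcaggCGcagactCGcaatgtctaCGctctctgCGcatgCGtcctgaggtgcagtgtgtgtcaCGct
Hibadh: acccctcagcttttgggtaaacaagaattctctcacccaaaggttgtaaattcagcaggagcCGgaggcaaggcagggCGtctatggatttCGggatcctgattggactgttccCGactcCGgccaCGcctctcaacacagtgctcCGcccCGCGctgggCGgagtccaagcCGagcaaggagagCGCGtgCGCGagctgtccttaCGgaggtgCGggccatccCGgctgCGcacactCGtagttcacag

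Urah held 7 CpG in these 250 bases and Uroc1 held 0. The Pccb stretch held 16 and the Hibadh stretch 20, while Mccc1, although widely expressed, held 2. Over the whole 300 bases the number of CpG was divided by the number that the G and C content would give by chance. This ratio had a median of 0.248 in 20 liver-restricted genes, 0.618 in 11 intermediate genes and 0.632 in 13 widely expressed genes, beside 0.753 in 10209 tested genes with a matched start. It was above 0.6, a usual bound for CpG islands, in 1 of 20 liver-restricted genes, which was Dmgdh, in 6 of 11 intermediate genes (54.5%) and in 10 of 13 widely expressed genes (76.9%). The share over all tested genes was 69.8%, and it was 0 of 15 among hepatocyte markers and 0 of 9 among macrophage markers.

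Letters of short motifs were sought on both strands of the same 300 bases, each motif separately and whether or not its matches overlapped those of another. The TATA box TATAAA was found in 4 of 20 liver-restricted genes (20.0%) and in none of the 24 others, against 7.79% of all matched starts. The letters TTGCNNAA, part of sites of C/EBP factors, were present in 5 of 44 members (11.4%), against 8.77% of all starts. Among hepatocyte markers TATAAA was in 5 of 15 and TTGCNNAA in 6 of 15, and each was in 1 of 9 macrophage markers. CAAAGTCCA, a form of the HNF4 site, and a form of the HNF1 site were each in 1 member (2.27%), against 0.509% and 0.362% of all starts. A match describes letters only.

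**Figure D1:**
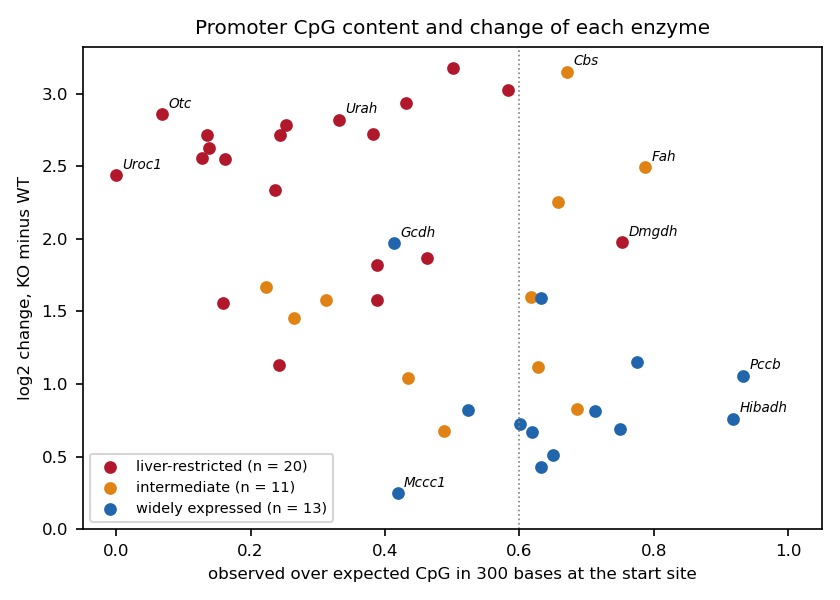
Each point is 1 of 44 enzyme genes, with the observed over expected CpG ratio of the 300 bases at its start on the horizontal axis and its log2 change, KO minus WT, on the vertical axis. Colours give the tissue class, and 19 of 20 liver-restricted genes lie left of the dotted line at 0.6, against 3 of 13 widely expressed genes.

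All 52 enzymes passed the filter on low values, and all 52 had a log2 change above 0, where 54.2% of all tested genes did. With limma, 32 of the 52 (61.5%) were higher in KO at an adjusted p under 0.05, beside 2.09% of all tested genes. None was lower, beside 0.352% of all tested genes. No member was lower at an unadjusted p under 0.05 either, where 49 were higher, beside 5.9% of all genes lower and 12.1% higher. The quasi-likelihood test of edgeR called 28 members higher and 0 lower, beside 1.41% of all genes higher, and DESeq2 called 44 higher and 0 lower, beside 6.14%. Of these 44, 12 had no limma call: Bhmt, Nags, Asl, Afmid, Kynu, Gpt, Got1, Prodh, Dmgdh, Amt, Gcsh and Hibadh. Below, a member that did not pass is one without a limma call in the fit named. With limma under pseudocounts of 0.5 and 5, 32 and 34 members were higher, beside 2.06% and 2.32% of all genes. Without a filter there were 30, beside 1.1%, with a filter on CPM 32, beside 2.24%, and with TMM factors 28, beside 1.45%. The replicate number as a block gave 37, beside 2.89%. Every KO library lay above every WT library for 48 members (92.3%), beside 13.7% of all tested genes. This share, and the 2.09% for limma calls, also stand beside the counts for single pathways and classes below. Groups overlapped for Bhmt, Bckdhb, Mccc1 and Hibch. The median log2 change of the 52 was 1.69, beside 0.05 over all tested genes.

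Most of these calls were lost without KO replicate 3. Without it, 2 members, Urah and Cbs, passed, and the other 30 had limma adjusted p of 0.0722 to 0.180, beside 0.0435% of all genes called higher. The log2 changes themselves moved little, with a median over liver-restricted members of 2.54 without that library and 2.55 with it. Without KO replicate 2 there were 21 calls, beside 0.812% of all genes. Without KO replicate 1, the library with high erythroid genes, there were 27, beside 3.95%. Without WT replicates 1, 2 and 3 there were 26, 25 and 25, beside 1.04%, 1.76% and 0.921%. Urah and Cbs alone kept their call in all 6 of these fits. A further 18 lost it in 1 fit, that without KO replicate 3, and Haao, Ivd, Gldc and Shmt1 lost it in each of the 6. With the transcripts of a gene summed, 25 members passed, beside 1.35% of all genes.

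**Figure D2:**
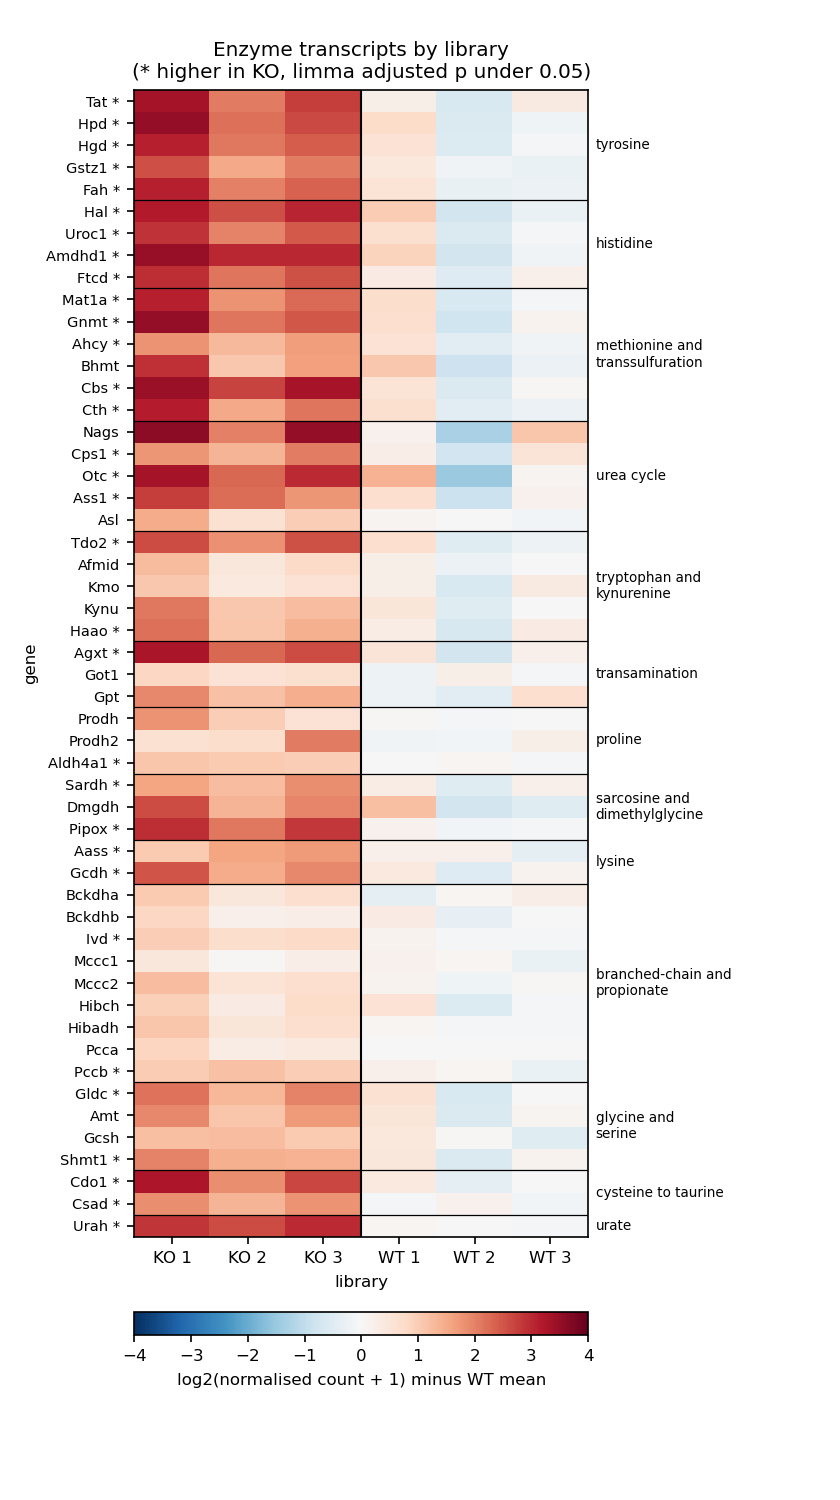
Rows are the 52 enzyme genes in pathway order and columns the KO and WT libraries, with colour giving log2(normalised count + 1) minus the WT mean. All KO columns are red for the tyrosine, histidine and methionine rows, while the branched-chain rows, with log2 changes of 0.25 to 1.06, are pale.

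Transcripts of tyrosine breakdown were higher in KO along the whole route. Its 5 enzymes act one after another, and all 5 rose, with log2 changes of 2.06 to 2.78. Tat, the aminotransferase of the first and rate-limiting step, had 3121, 1312 and 2125 normalised counts in KO and 368, 205 and 405 in WT libraries (log2 change 2.71, SE 0.35, adjusted p = 0.0144). The lowest KO library was 3.24 times the highest WT library. Hpd, the dioxygenase that makes homogentisate, had 5335, 2118 and 2852 in KO and 773, 308 and 413 in WT libraries (log2 change 2.78, SE 0.39, adjusted p = 0.0147). Hgd, which opens the ring of homogentisate, had 1682, 841 and 1049 in KO and 293, 132 and 188 in WT libraries (log2 change 2.55, SE 0.34, adjusted p = 0.0144). In all 3 genes KO replicate 1 was highest and KO replicate 2 lowest, and the groups stayed apart. The last enzymes are less liver-bound, and they rose as well: Gstz1, the maleylacetoacetate isomerase, had 1904, 908 and 1341 in KO and 420, 285 and 264 in WT libraries, with a log2 change of 2.06 (SE 0.29). Fah, whose loss causes hereditary tyrosinaemia, had 2314, 1070 and 1362 in KO and 389, 214 and 223 in WT libraries, with a log2 change of 2.50 (SE 0.32). Without KO replicate 3 the adjusted p of these 5 genes was 0.0722 to 0.0742.

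Transcripts of histidine breakdown also rose at each of its 4 steps, by 2.44 to 3.18 on the log2 scale. Amdhd1, the imidazolonepropionase, had the highest log2 change of all 52 members. It had 687, 500 and 501 normalised counts in KO and 113, 35.7 and 55.0 in WT libraries (log2 change 3.18, SE 0.40, adjusted p = 0.0144), so that the lowest KO library was 4.42 times the highest WT library. Hal, the ammonia lyase that turns histidine into urocanate, had 1383, 911 and 1270 in KO and 306, 91.4 and 126 in WT libraries (log2 change 2.93, SE 0.40). Uroc1, the urocanate hydratase, had 983, 525 and 722 in KO and 206, 87.2 and 127 in WT libraries (log2 change 2.44, SE 0.34). The fourth enzyme, Ftcd, passes the formimino group to tetrahydrofolate. Ftcd had 697, 394 and 524 in KO and 110, 60.9 and 103 in WT libraries (log2 change 2.56, SE 0.31). WT replicate 1 was the highest and WT replicate 2 the lowest WT library for each of the 4, and without KO replicate 3 their adjusted p was 0.0722 to 0.0742.

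Methionine is activated, used for methylation, and then either remade from homocysteine or passed on to cysteine by transsulfuration. Of these 6 enzymes 5 rose, and Bhmt did not pass. Mat1a, the liver form of S-adenosylmethionine synthetase, had 6064, 2402 and 3346 normalised counts in KO and 1135, 453 and 653 in WT libraries (log2 change 2.39, SE 0.39, adjusted p = 0.0216). Gnmt, the glycine methyltransferase that consumes excess S-adenosylmethionine, had 5415, 2080 and 2664 in KO and 742, 269 and 521 in WT libraries (log2 change 2.72, SE 0.42, adjusted p = 0.0200). Per kilobase of transcript Gnmt was the highest of the 52 members in both groups, at 3272 normalised counts per kb in KO and 493 in WT libraries. Ahcy, which splits S-adenosylhomocysteine in all cells, had 606, 422 and 554 in KO and 260, 126 and 156 in WT libraries (log2 change 1.59, SE 0.30, adjusted p = 0.0323). Its adjusted p was 0.0632 without KO replicate 2, 0.135 without KO replicate 3, 0.0586 without WT replicate 2 and 0.0725 without WT replicate 3.

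Both transsulfuration enzymes were higher. Cbs, the cystathionine synthase, had 1308, 770 and 1160 in KO and 171, 77.7 and 122 in WT libraries (log2 change 3.15, SE 0.32, adjusted p = 0.00570), and its lowest KO library was 4.50 times its highest WT library. Cbs (ENSMUSG00000024039) was read over a transcript at 31612623 to 31637238 on the minus strand of chromosome 17. Cth, the cystathionine lyase that releases cysteine, had 1250, 406 and 621 in KO and 219, 106 and 120 in WT libraries (log2 change 2.26, SE 0.42, adjusted p = 0.0322). Its adjusted p was 0.108 without KO replicate 3, 0.0617 without WT replicate 2 and 0.0689 without WT replicate 3. Bhmt, which remakes methionine with a methyl group of betaine, had 1870, 519 and 766 in KO and 521, 138 and 211 in WT libraries. KO replicate 2 lay just below WT replicate 1, so the groups overlapped (log2 change 1.87, SE 0.54, adjusted p = 0.104). Without KO replicate 3 the adjusted p of Mat1a and Gnmt was 0.0821 and 0.0742.

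Downstream of cysteine, both enzymes of the route to taurine rose. Cdo1, the cysteine dioxygenase, had 5122, 1972 and 3520 normalised counts in KO and 712, 416 and 549 in WT libraries (log2 change 2.59, SE 0.34, adjusted p = 0.0144). Csad, the decarboxylase that follows, had 988, 690 and 933 in KO and 263, 303 and 248 in WT libraries (log2 change 1.66, SE 0.21, adjusted p = 0.0144). Per kilobase Cdo1 ranked 3 of the members in KO libraries, at 2218 normalised counts per kb, and 6 in WT libraries, at 350.4. Without KO replicate 3 the adjusted p of each was 0.0722.

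In the urea cycle, 3 of 5 enzymes rose, beside 2.09% of all tested genes called higher. None of the 5 overlapped between the groups, where 13.7% of all tested genes had every KO library above every WT library. Cps1, which makes carbamoyl phosphate in mitochondria, had 1000, 759 and 1228 normalised counts in KO and 355, 173 and 419 in WT libraries (log2 change 1.72, SE 0.33, adjusted p = 0.0373). Otc, which forms citrulline, had 1451, 708 and 1149 in KO and 377, 51.5 and 155 in WT libraries (log2 change 2.86, SE 0.60, adjusted p = 0.0463). Ass1 joins citrulline and aspartate, also in macrophages that recycle citrulline. Ass1 had 1099, 749 and 540 in KO and 254, 88.2 and 180 in WT libraries (log2 change 2.25, SE 0.39, adjusted p = 0.0267). The 2 that did not pass were Nags, which makes the activator of Cps1, and Asl, which releases arginine. DESeq2 called both, with adjusted p of 0.000601 for Nags and 0.00192 for Asl. Nags was the lowest of the 52 per kilobase, at 42.2 normalised counts per kb in KO and 5.40 in WT libraries, and had 150.5, 50.04 and 143 in KO and 13.4, 4.20 and 26.4 in WT libraries (log2 change 3.03, SE 0.70, adjusted p = 0.0566). Its transcript shares 16.3% of its exon length with Gm11586 on the other strand. Asl had 1485, 817 and 1060 in KO and 572, 540 and 489 in WT libraries (log2 change 1.03, SE 0.23, adjusted p = 0.0527).

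Single libraries decided several urea cycle calls. For Cps1 the adjusted p was 0.0638 without KO replicate 2, 0.151 without KO replicate 3 and 0.0816 without WT replicate 1. For Otc it was 0.0648, 0.0880 and 0.165 without KO replicates 1, 2 and 3 and 0.0864 without WT replicate 3, and edgeR gave 0.0692. For Ass1 it was 0.0819 without KO replicate 2 and 0.0742 without KO replicate 3, and Nags passed without WT replicate 3, at 0.0497. With transcripts summed, the adjusted p of Cps1, Otc and Ass1 was 0.0552, 0.0669 and 0.0535.

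Tryptophan is broken down through kynurenine, and the first enzyme of that route in hepatocytes, Tdo2, rose. Tdo2 had 1484, 865 and 1437 normalised counts in KO and 389, 173 and 211 in WT libraries (log2 change 2.33, SE 0.33, adjusted p = 0.0147, and 0.0748 without KO replicate 3). Haao, the dioxygenase that leads towards NAD, had 2521, 1174 and 1485 in KO and 677, 353 and 693 in WT libraries. Its log2 change was 1.57 (SE 0.33, adjusted p = 0.0470), and its adjusted p was 0.0543 to 0.148 when any 1 library was left out and 0.0554 with edgeR. The 3 enzymes between them, which mononuclear phagocytes also express in the case of Kmo and Kynu, did not pass. Kynu, the kynureninase, had 612, 299 and 336 in KO and 199, 101 and 142 in WT libraries (log2 change 1.47, SE 0.34, adjusted p = 0.0584). Kmo, the kynurenine monooxygenase, had 1099, 680 and 783 in KO and 617, 342 and 678 in WT libraries (log2 change 0.68, SE 0.29, adjusted p = 0.258), so KO replicate 2 and WT replicate 3 were nearly level. Afmid, the formamidase, had a log2 change of 0.83 (SE 0.26, adjusted p = 0.127), and 67.3% of its exon length is shared with Gm20708 on the same strand. The transcripts of Kynu differed among themselves, with log2 changes of 0.36 to 1.47 over 6 isoforms of a mean of at least 10.

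Among the aminotransferases, Agxt rose and the 2 others did not pass. Agxt, which removes glyoxylate in peroxisomes, had 1007, 514 and 639 normalised counts in KO and 149, 63.0 and 121 in WT libraries (log2 change 2.72, SE 0.36, adjusted p = 0.0147, and 0.0722 without KO replicate 3). Gpt, alanine aminotransferase, had 347, 205 and 249 in KO and 78.3, 65.1 and 144 in WT libraries (log2 change 1.52, SE 0.36, adjusted p = 0.0584, and 0.0436 without WT replicate 3). Got1, the cytosolic aspartate aminotransferase of most cells, had a log2 change of 0.69 (SE 0.19, adjusted p = 0.0922). Of the proline enzymes, Aldh4a1, the dehydrogenase that completes the oxidation to glutamate, had 906, 871 and 841 in KO and 419, 447 and 405 in WT libraries (log2 change 1.04, SE 0.165, adjusted p = 0.0209). Its SE was the smallest of the 52 members, and 47.2% of its exon length is shared with Gm21969 on the same strand. The adjusted p of Aldh4a1 was 0.0743 without KO replicate 2, 0.0982 without KO replicate 3 and 0.0508 without WT replicate 3. Prodh, the proline dehydrogenase, and Prodh2, which acts on hydroxyproline, had log2 changes of 1.12 and 1.13 and adjusted p of 0.129 and 0.237.

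Choline and lysine breakdown gave 4 calls among 5 genes, beside 2.09% of all tested genes called higher. Pipox, a peroxisomal oxidase of sarcosine and pipecolate, had 577, 325 and 531 normalised counts in KO and 84.5, 69.3 and 70.2 in WT libraries (log2 change 2.62, SE 0.28, adjusted p = 0.00886, and 0.0722 without KO replicate 3). Sardh, the mitochondrial sarcosine dehydrogenase, had 606, 478 and 727 in KO and 247, 143 and 230 in WT libraries (log2 change 1.56, SE 0.27, adjusted p = 0.0263, and 0.116 without KO replicate 3). Dmgdh, which makes sarcosine from dimethylglycine, did not pass, with a log2 change of 1.97 (SE 0.52, adjusted p = 0.0815). Its WT values were spread widely, at 215, 54.6 and 66.3, and it passed without WT replicate 1, at 0.0296. Aass, the bifunctional enzyme that starts lysine breakdown, had 875, 1271 and 1383 in KO and 483, 483 and 321 in WT libraries (log2 change 1.45, SE 0.24, adjusted p = 0.0238). KO replicate 1 was the lowest KO library here, unlike in most members. The adjusted p of Aass was 0.0851, 0.108 and 0.0501 without KO replicate 2, KO replicate 3 and WT replicate 1. Gcdh, the glutaryl-CoA dehydrogenase further down, had 1883, 935 and 1247 in KO and 432, 230 and 367 in WT libraries (log2 change 1.97, SE 0.31, adjusted p = 0.0205, and 0.0814 without KO replicate 3).

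The glycine cleavage system is a mitochondrial complex that splits glycine into carbon dioxide, ammonia and a folate-bound carbon. It had 1 call among its 3 members here, beside 2.09% of all tested genes called higher. Gldc, the decarboxylating P protein, had 283, 156 and 247 normalised counts in KO and 94.8, 39.9 and 62.9 in WT libraries (log2 change 1.82, SE 0.39, adjusted p = 0.0470). Amt, the T protein, had a log2 change of 1.58 and Gcsh, the lipoylated H protein, one of 1.15, each with an adjusted p of 0.0566. The 3 KO values were above the 3 WT values in each of these genes, as in 13.7% of all tested genes. Shmt1, the cytosolic serine hydroxymethyltransferase, had 492, 329 and 320 in KO and 167, 80.9 and 136 in WT libraries (log2 change 1.60, SE 0.32, adjusted p = 0.0417). With any 1 library left out the adjusted p was 0.0523 to 0.180 for Gldc and 0.0525 to 0.116 for Shmt1.

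Transcripts for breakdown of the branched-chain amino acids and of propionate changed least of the larger groups, with log2 changes of 0.25 to 1.06. There were 2 calls among 9 genes (22.2%), beside 2.09% of all tested genes called higher. Pccb, the beta subunit of propionyl-CoA carboxylase, had 670, 743 and 655 normalised counts in KO and 379, 348 and 273 in WT libraries (log2 change 1.06, SE 0.20, adjusted p = 0.0323). Pcca, the alpha subunit of the same enzyme, had 454, 309 and 331 in KO and 253, 253 and 250 in WT libraries and did not pass (log2 change 0.51, SE 0.22, adjusted p = 0.263). Ivd, the isovaleryl-CoA dehydrogenase of leucine breakdown, had 1058, 870 and 891 in KO and 588, 508 and 496 in WT libraries (log2 change 0.82, SE 0.18, adjusted p = 0.0470). Its call was lost with edgeR, at 0.0544, and in each fit without 1 library, at 0.0605 to 0.168. For Pccb the adjusted p was 0.123 and 0.120 without KO replicates 2 and 3, and 0.0503, 0.0557 and 0.0790 without WT replicates 1, 2 and 3.

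The other 7 genes of this group had no call by limma or edgeR, and DESeq2 called 1 of them, Hibadh, with an adjusted p of 0.0117. Bckdha and Bckdhb, the subunits of the branched-chain keto acid dehydrogenase that catalyse the committed step, had log2 changes of 0.72 and 0.43, and 61.7% of the Bckdha exon length lies opposite B3gnt8. Mccc1 and Mccc2, the subunits of methylcrotonyl-CoA carboxylase, stood at 0.25 and 0.82. Mccc1 had 326, 248 and 288 in KO and 272, 254 and 201 in WT libraries, overlapping sets with the smallest log2 change of all 52 members (SE 0.23, adjusted p = 0.632). Its isoforms of a mean of at least 10 went either way, with log2 changes of -0.47 to 0.60. Hibch and Hibadh, which act on valine, were at 0.67 and 0.76, with adjusted p of 0.321 and 0.0763.

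Urah, the hydrolase that acts on the product of urate oxidase, had the smallest p of the 52. It had 431, 366 and 473 normalised counts in KO and 61.8, 58.8 and 55.6 in WT libraries (log2 change 2.82, SE 0.24, adjusted p = 0.00302). The lowest KO library was 5.92 times the highest WT library, and the WT values varied by little, at 58.7 ± 3.11 (SD, n = 3), beside 423 ± 53.9 (SD, n = 3) in KO. Urah (ENSMUSG00000025481) was read over a transcript at 140835279 to 140837966 on the plus strand of chromosome 7, whose start region is printed above. Its adjusted p was 0.0397 without KO replicate 3 and that of Cbs was 0.0418.

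**Figure D3:**
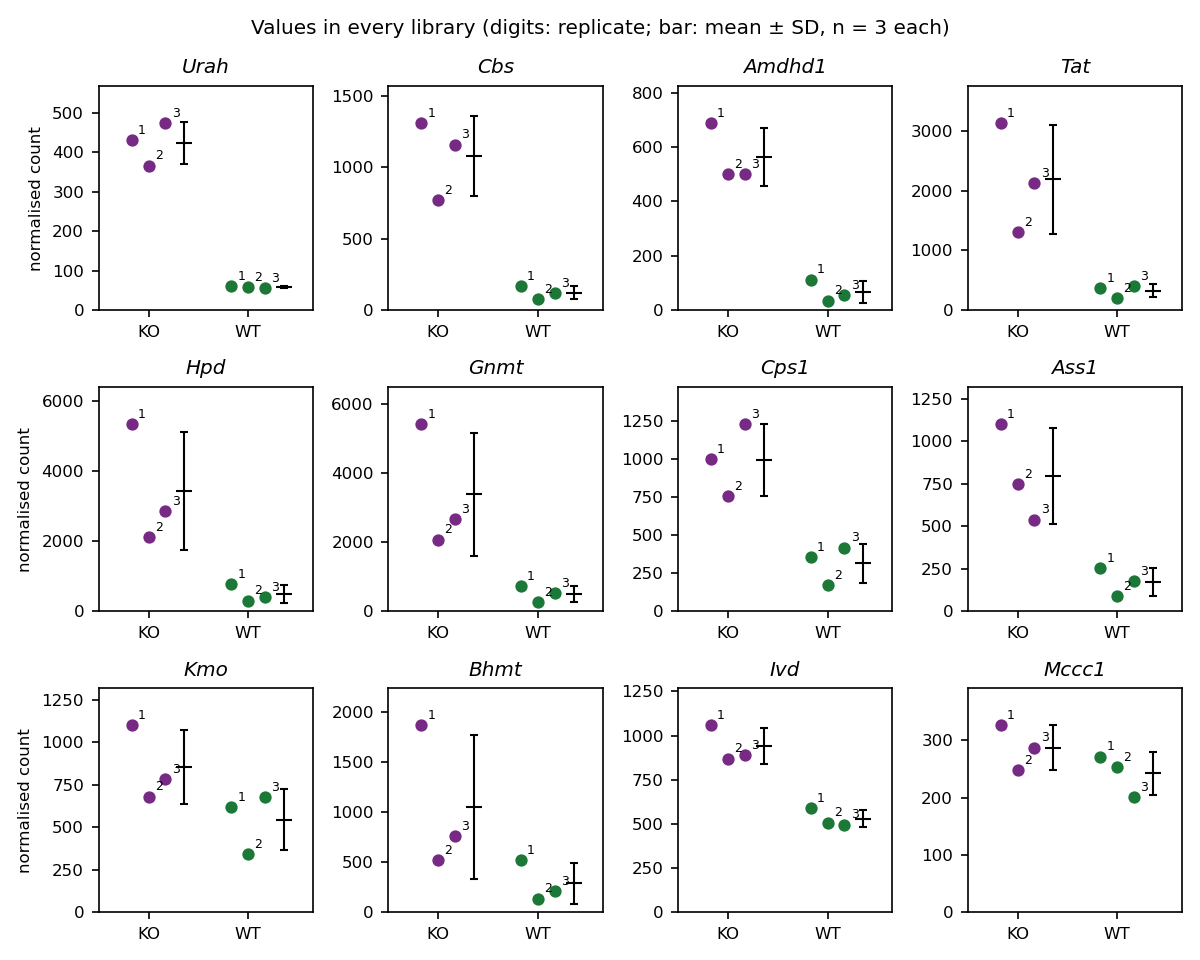
Normalised counts of 12 enzymes in each library, KO left and WT right, with replicate numbers beside the points and the mean ± SD (n = 3 each) beside them. The groups lie far apart for Urah and Cbs, nearly meet for Kmo, and overlap for Bhmt and Mccc1.

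Set by tissue range, the size of the log2 change fell from class to class. The median was 2.55 over the 22 liver-restricted members, of which 18 were called, 1.58 over the 17 intermediate members, of which 10 were called, and 0.76 over the 13 widely expressed members, of which 4 were called. Ranges overlapped, from 1.13 to 3.18 in the liver-restricted class and from 0.25 to 1.97 in the widely expressed class. The liver-restricted members without a call were Bhmt, Nags, Dmgdh and Prodh2, and the widely expressed members with one were Ahcy, Gcdh, Ivd and Pccb. With the intermediate members counted as widely expressed, the median of that class was 1.13. Summed normalised counts of the liver-restricted members were 37378, 17305 and 24422 in KO and 7270, 3001 and 4963 in WT libraries, while those of the widely expressed members were 10032, 7121 and 7936 in KO and 4659, 4213 and 4256 in WT libraries. The KO mean was 5.19 times the WT mean for the liver-restricted and 1.91 times for the widely expressed members. The difference between classes is given without a test.

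**Figure D4:**
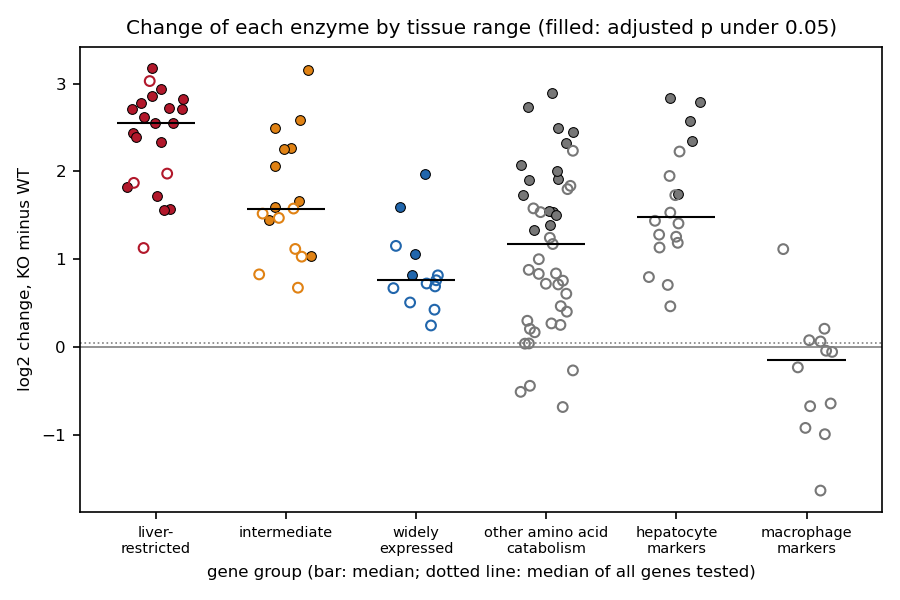
Log2 change, KO minus WT, of each gene (points, filled where the adjusted p is under 0.05) in the 3 classes of enzymes and in 3 further lists, with bars at the medians. Medians run down from 2.55 in liver-restricted through 1.58 to 0.76 in widely expressed enzymes, beside 1.17 in other enzymes of amino acid breakdown, 1.48 in hepatocyte and -0.14 in macrophage markers.

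Enzymes of amino acid breakdown outside the list were set beside these. Of 45 such genes 43 were tested, and 39 had a log2 change above 0, where 54.2% of all tested genes did. By limma 15 (34.9%) were higher and 0 lower, beside 2.09% and 0.352% of all tested genes, and the median log2 change was 1.17. At an unadjusted p under 0.05 there were 29 higher and 1 lower, beside 12.1% and 5.9% of all genes. The edgeR test called 14 and DESeq2 called 22, all of them higher, beside 1.41% and 6.14% of all genes higher. Limma called 9 without WT replicate 3 and 0 without KO replicate 3, beside 0.921% and 0.0435% of all genes higher. Qdpr, the dihydropteridine reductase, had 2177, 1429.8 and 1586 normalised counts in KO and 782, 753 and 520.5 in WT libraries (log2 change 1.34, SE 0.23, adjusted p = 0.0252). Gls2, the liver glutaminase, Ido2, a paralog of the tryptophan-cleaving Ido1, and Sds, the serine dehydratase, had log2 changes of 2.73, 2.89 and 2.07. Hoga1 and Grhpr, which handle hydroxyproline carbon and glyoxylate, were at 2.33 and 1.91. Aldh6a1 of the valine route, Aldh7a1 of the lysine route, Gcat of threonine, Gpt2 of alanine and Gamt of creatine synthesis were at 1.55, 1.91, 1.73, 1.39 and 1.503. None of these 11 passed without KO replicate 3, with adjusted p of 0.0722 to 0.120.

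Arginase and other amino acid enzymes of myeloid cells gave no call by limma with all libraries. Arg1, the last enzyme of the urea cycle and also a product of alternatively activated macrophages, had 10098, 11889 and 18195 normalised counts in KO and 3624, 9050 and 5002 in WT libraries (log2 change 1.24, SE 0.36, adjusted p = 0.101). DESeq2 called Arg1 higher, with an adjusted p of 0.0259, edgeR gave 0.151, and limma gave 0.0466 without WT replicate 2. KO replicate 3 was its highest KO library, as for Cps1, whereas KO replicate 1 was highest for Nags, Otc, Ass1 and Asl. Arg2, the mitochondrial arginase, had a log2 change of 0.28 (SE 0.39, adjusted p = 0.774) and -0.12 without WT replicate 3. Of 10 amino acid enzymes of immune or dividing cells 6 were tested, with a median log2 change of 0.22 and 0 calls by limma, edgeR and DESeq2. At an unadjusted p under 0.05, 1 was higher and 1 lower, beside 12.1% and 5.9% of all tested genes.

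Markers of hepatocytes and of endothelial, stellate, cholangiocyte and erythroid cells were mostly higher in KO too, and their part in the result was not tested. Their order of libraries often differed from that of the enzymes, which is given below. KO replicate 2 was the highest KO library for all 12 endothelial markers, and WT replicate 2 the highest WT library for 11. KO replicate 3 was highest for 9 of 10 stellate markers. For all 6 erythroid markers KO replicate 1 was highest, as for most enzymes, and KO replicate 3 lowest. Of all tested genes, 54.2% had a log2 change above 0. Called higher were 2.09% by limma, 1.41% by edgeR and 6.14% by DESeq2, and 12.1% were higher at an unadjusted p under 0.05. These shares stand beside each list here. All 18 hepatocyte markers had a log2 change above 0, with a median of 1.48 and 5 calls by limma and by edgeR and 9 by DESeq2. Limma called 9 of them without KO replicate 1, 0 without KO replicate 3 and 3 without WT replicate 1. The shares of all genes higher in these fits were 3.95%, 0.0435% and 1.04%. Their summed normalised counts were 139654 to 259757 in KO and 40075 to 128972 in WT libraries, and none was at 0 in any library. Endothelial markers, at a median of 1.37, had 5 of 12 called by limma, 1 by edgeR and 8 by DESeq2. Limma called 9 without KO replicate 1, beside 3.95% of all genes higher, and 1 without WT replicate 3, beside 0.921%. It called 0 without KO replicate 2, KO replicate 3 or WT replicate 1. Endothelial markers summed to 64534 to 129770 in KO and 31317 to 58692 in WT libraries. Of the 10 stellate cell markers 9 had a log2 change above 0, and the median was 0.71. These 10 had 1 call by limma, 0 by edgeR and 2 by DESeq2. They summed to 31788 to 57581 in KO and 19695 to 27937 in WT libraries. The limma call, Col1a1, was lost without any 1 library but KO replicate 1. The 5 cholangiocyte markers tested were all above 0, at a median of 1.047, with 1 call by limma and by DESeq2, 0 by edgeR and 0 by limma without KO replicate 2, KO replicate 3, WT replicate 1 or WT replicate 3. The 6 erythroid markers were all above 0 as well, at a median of 3.12, the highest of these lists, with 0 calls by limma, edgeR and DESeq2 and 5 higher at an unadjusted p under 0.05. The 12 macrophage markers, at a median of -0.14, had 0 calls by limma and by edgeR and 4 by DESeq2 (1 higher and 3 lower). At an unadjusted p under 0.05, 1 was higher and 3 lower, beside 12.1% and 5.9% of all tested genes. They summed to 77719 to 85202 in KO and 86902 to 169807 in WT libraries.

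The order of the libraries within a genotype differed between the enzymes and much of the hepatocyte list. KO replicate 1 was the highest KO library for 45 of the 52 enzymes and KO replicate 2 the lowest for 44. The order in WT was alike, with WT replicate 1 highest for 41 and WT replicate 2 lowest for 37. For hepatocyte markers KO replicate 3 was highest in 16 of 18, and WT replicate 2 was the highest WT library in 12. A split of the hepatocyte markers made after their values were seen put 12 genes of secreted plasma proteins apart from 6 others, Cyp2e1, Cyp3a11, Fabp1, Pck1, G6pc and Hnf4a. In all 12 secreted ones KO replicate 3 was the highest and KO replicate 1 the lowest KO library, and WT replicate 2 was the highest and WT replicate 3 the lowest WT library. The 6 others were nearer to the enzymes in part. KO replicate 2 was their lowest KO library in 4, and WT replicate 2 was their lowest WT library in 3 and their highest in 0. KO replicate 3, however, was their highest KO library in 4 and KO replicate 1 in 2. Alb, serum albumin, had 64233.5, 88350.4 and 115980.5 normalised counts in KO and 50721, 60777 and 18082 in WT libraries (log2 change 1.19, SE 0.53, adjusted p = 0.283). Trf, transferrin, and Hpx, hemopexin, had log2 changes of 0.80 and 0.71, and that of Hpx was -0.06 without WT replicate 3.

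The 6 other markers had 4 calls and a median of 2.46 on the log2 scale, against 1 call and 1.34 for the 12 secreted ones. Limma called 2.09% of all tested genes higher. Hnf4a, a transcription factor of hepatocyte identity, had 1167, 836 and 1253 normalised counts in KO and 320, 80.9 and 140 in WT libraries (log2 change 2.79, SE 0.43, adjusted p = 0.0205), the same order within WT as most enzymes. Cyp3a11 had a log2 change of 0.46, which was -0.05 without KO replicate 3. The summed hepatocyte markers of a library came mostly from the 12 secreted genes, whose library order differed from that of the enzymes. The 6 others gave only 5842 to 15394 normalised counts of that sum in KO and 1857 to 2862 in WT libraries. Relative to the sum of all 18, the liver-restricted enzymes came to 26.8%, 9.89% and 9.40% in KO and 7.34%, 2.33% and 12.4% in WT libraries, so on that measure the groups overlapped. Per normalised count of Hnf4a, their sum came to 32.0, 20.7 and 19.5 in KO and 22.7, 37.1 and 35.5 in WT libraries, which also overlapped. On the same measure the widely expressed enzymes came to 8.60, 8.51 and 6.33 in KO and 14.5, 52.1 and 30.4 in WT libraries, with every KO library below every WT library. The KO mean was 6.02 times the WT mean for Hnf4a and 1.91 times for these enzymes, so this ratio reflects the divisor more than the enzymes.

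**Figure D5:**
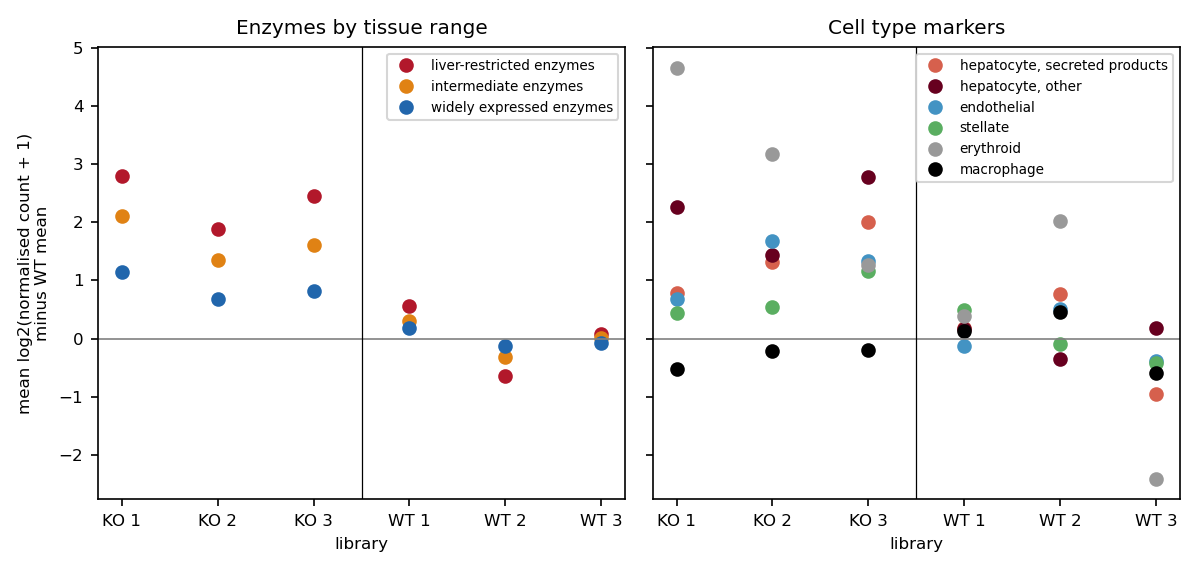
Mean log2(normalised count + 1) of each gene group minus its WT mean, by library, for the 3 classes of enzymes (left panel) and for cell type markers (right panel). Enzymes are highest in KO replicate 1 and lowest in WT replicate 2, while secreted hepatocyte products are lowest in WT replicate 3 and highest in KO replicate 3.

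Isoforms gave the same direction in nearly all cases. Of 214 transcripts of these genes with a mean of at least 10 normalised counts, 211 had a log2 change above 0, and the 3 others belonged to Mccc1. Many of these isoforms share reads, so they are not separate measurements. Among 40 genes with at least 2 such transcripts the spread between the lowest and the highest log2 change had a median of 0.37, and it was under 0.5 in 24. It was widest in Aass, from 1.37 to 3.22, and in Shmt1, from 1.18 to 2.86.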

How the data were processed

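Polyadenylated RNA was measured in 6 libraries of F4/80-selected liver cells, 3 KO and 3 WT, grouped by their titles. Per the submitters' processing notes, DESeq 1.8.3, HTSeq 0.5.3, SAMtools, STAR 2.4.0k and bcl2fastq 2.17 were used with GRCm38.p4. Which annotation, counting options and strand setting applied is not given in the sources used.

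Per the file headers, the deposited signal is a normalised count for each of 79382 Ensembl transcripts. All values (100%) were whole multiples of the value of 1 read of their library, within 0.001, so the authors had divided counts by 1 factor per library and whole reads could be recovered. GENCODE M21 on GRCm38 matched 78332 transcripts and 23394 genes. Several isoforms of a gene often carried the same reads, so the transcript of highest mean was kept for each gene.

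limma 3.58.1 with a trended prior was fitted to log2(value + 1) of the 15619 genes that passed edgeR's filterByExpr, with genotype as the only term. Two-sided p-values received a Benjamini-Hochberg adjustment over all genes tested, and calls needed an adjusted p under 0.05. Alternatives used edgeR 4.0.16 (quasi-likelihood test) and DESeq2 1.42.0 on the recovered reads. The edgeR test called 282 genes. The fit was also run on simulated counts drawn independently for each gene. That setting holds no effects shared by the genes of 1 library, so it cannot show how the fit handles them. The members, pathways, tissue classes, marker lists and named genes were chosen with earlier results of these data known. Of other pathway genes, the rule names the 12 calls of smallest p, of which 1 is not reported here, with Arg1 and Arg2. Of marker lists it names the highest genes, Adgre1 and the hepatocyte markers of a split made after their values were seen. Promoters came from RefSeq (GRCm38.p6).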

Additional observations from a re-analysis of the deposited data

How the results depend on the processing

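With 3 libraries per genotype, calls depended on single libraries more than sizes did. Over all genes limma called 381 genes, DESeq2 called 1409 (959 of them higher in KO), and 240 were called with the transcripts of a gene summed. With 1 library left out the count was 8 to 809 genes, and the count of called enzymes was 2 to 27, against 32 with all libraries. The enzymes called were 28 with TMM factors or edgeR, 30 to 34 with the other pseudocounts and filters, and 44 with DESeq2. The median log2 change of the widely expressed members was 1.13 with the intermediate members counted among them, against 0.76. With 1 library left out, the log2 change of Arg2 was -0.12 to 0.53, that of Hpx -0.057 to 1.40 and that of Cyp3a11 -0.046 to 0.81, and the cause was not tested. The groups share replicate numbers. Over all tested genes, deviations from the group means correlated at -0.01, 0.09 and -0.14 for same-numbered libraries. Among KO libraries only replicate 2 correlated best with the WT library of its own number. KO replicate 1 correlated best with WT replicate 3, at 0.14, and KO replicate 3 with WT replicate 2, at 0.07. Among the 52 enzymes, however, replicate 1 was most often highest in both groups (45 in KO and 41 in WT). Replicate 2 was most often lowest in both (44 in KO and 37 in WT). Whether same-numbered libraries were handled together was not tested. With the replicate number as a block 37 enzymes and 539 genes were called. The precision is limited by 10790842 to 22157238 reads per library and by 3 libraries per genotype.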
